A study of Homo sapiens with 6 samples.

Results

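The genes of 9 claudins and tight junction proteins were followed in RNA-sequencing values of H1975 cells before and after adaptation to Osimertinib (Osi). They were chosen by symbol as 5 claudins (CLDN1, CLDN3, CLDN4, CLDN7 and CLDN12), the other membrane proteins OCLN and F11R, and the scaffolds TJP1 and TJP3. All 9 were among the 27216 rows of the deposited table, and all 9 passed the filter on low values that left 12656 rows for testing. In adapted cells CLDN1, CLDN3, OCLN and TJP1 rose, CLDN12 and TJP3 fell, and CLDN4, CLDN7 and F11R were not called.

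Tight junctions close the space between neighbouring epithelial cells near the apical surface. Claudins are membrane proteins with 4 membrane spans whose loops pair across the cell border, and their mixture sets which ions pass between the cells, since some seal the gap and others form pores. Occludin and junctional adhesion molecules lie in the same strands or beside them, and the ZO proteins, which are cytoplasmic scaffolds with PDZ domains, tie the tails of claudins to each other and to actin. In airway and alveolar epithelium these proteins keep air and fluid apart, and carcinomas of the lung usually retain many of them.

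H1975 is an established lung adenocarcinoma line with mutant EGFR, and Osi is a tyrosine kinase inhibitor of such EGFR. The 3 parental samples were labelled Osi for 0 h and the 3 adapted samples Osi for 72 h, at 1000 nM. All 6 were labelled H1975, NSCLC and genotype WT, with no inserted or deleted gene. DMSO stands in the column names of the parental samples, and the series design names DMSO or Osi for 0 or 72 h. That does not settle how long, if at all, the parental samples were held in DMSO. Time in culture and Osi thus cannot be told apart. The dose in the labels is also found in the study's text, while its reagent list gives another. Apoptotic cells were removed with cold PBS at 72 h, so the adapted values are those of cells still attached. The labels also describe digestion with RNase R, an enzyme that degrades linear RNA, whereas the study's methods do not, and how far it changed the level of a linear mRNA could not be read from the table. The study speaks in general of independent experiments, but the labels do not say whether these replicates were separate cultures. If they were not, p-values measure only technical spread.

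Values are log2(FPKM + 1). FPKM divides the fragments of a gene by its length and by the size of the library. The unit and the added 1 were read from the values, and depth is unknown. Summed FPKM ran from 375342 to 387753 per sample. The adapted samples were less alike (mean Pearson r with the others of the group 0.977 to 0.985 over the rows tested) than the parental samples (0.995 to 0.996), and adapted replicate 1 stood farthest from its group. All 6 epithelial markers (EPCAM, KRT7, KRT8, KRT18, KRT19 and CDH1) had a mean of at least 1, with summed FPKM of 3710 to 3742 in parental and 3491 to 3788 in adapted samples. Within that sum KRT7 rose (difference 1.07), KRT8 (-0.28), KRT18 (-0.57) and KRT19 (-0.75) fell, and EPCAM and CDH1 were not called. Of the alveolar markers, NKX2-1 and NAPSA were present and the surfactant genes SFTPB and SFTPC were below a mean of 1. NKX2-1 rose (0.47) and NAPSA fell (-0.81). Of the markers of other cells, 0 of 4 endothelial, 1 of 5 fibroblast (COL1A1) and 1 of 5 immune genes (CD68) reached a mean of 1. Their sums in FPKM were 1.17 to 1.87 in parental and 1.42 to 3.47 in adapted samples for the endothelial list, 3.04 to 3.15 and 7.62 to 9.19 for the fibroblast list, and 74.5 to 76.9 and 14.8 to 29.8 for the immune list. PTPRC, which marks leukocytes, was at most 0.08 in any sample, COL1A2 at most 0.04, and CD3E and MS4A1 were listed at 0 in all 6. The endothelial PECAM1 lay between 1.0 and 1.40 in parental and between 0.07 and 0.11 in adapted samples, and CDH5 between 0.16 and 0.27 and between 1.19 and 2.08, respectively. The part of these markers in the results was not tested.

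Start sites of 8 of the 9 genes were found in the RefSeq promoter windows of GRCh38.p14 (14 windows of 300 bases, 250 of them before the start). They were searched on both strands for CAGGTG, the E-box that SNAI1, SNAI2 and ZEB proteins are known to bind and through which they are known to repress CLDN3, CLDN4, CLDN7 and OCLN. CAGGTG lay in 6 of the 14 windows and in 5 of the 8 genes, against 20.6% of all 35116 windows and 24.1% of 27305 genes. A gene with more windows has more places for a match, and the shares of genes were not matched for this. The genes with the letters were CLDN3, CLDN7, OCLN, TJP1 and TJP3. The windows of CLDN1, CLDN4 and CLDN12 held none. There were 11 matches in all, 5 of them in CLDN7, of which 3 are shown. No match overlapped another. All 250 bases before the start lay in annotated exons for the second start of CLDN7 and the first of OCLN, which had matches. The same held for CLDN4 and the upstream start of TJP3, which had none. A match is only a description of the letters. The stretches below are shown because they show which genes carry the letters, with the match in capitals on the strand of the gene.
CLDN3, chr7:73770221-73770250, minus strand, match 36 bases after the start: cccacaaagccacaggCAGGTGcaggcgca
CLDN7, chr17:7262596-7262625, minus strand, 135 bases before a second start: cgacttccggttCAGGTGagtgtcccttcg
CLDN7, chr17:7262481-7262510, minus strand, 20 bases before it, with CACCTG, the same letters on the other strand, 9 bases before it: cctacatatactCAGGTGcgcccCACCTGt
OCLN, chr5:69492502-69492531, plus strand, 33 bases before the first start: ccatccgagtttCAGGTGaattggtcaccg
OCLN, chr5:69492645-69492674, plus strand, 133 bases before the other start: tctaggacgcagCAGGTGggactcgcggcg
OCLN, chr5:69492810-69492839, plus strand, 35 bases after it: cggtcggtgcggcgtCAGGTGcgcccgcca
TJP1, chr15:29969120-29969149, minus strand, 88 bases before the most upstream start: gcggccggcgcgCAGGTGgcccggcctcgc
TJP3, chr19:3721718-3721747, plus strand, 7 bases before the downstream start: gaggaagaggggCAGGTGcagccgggagct
CLDN1, chr3:190322476-190322540, minus strand, the 65 upstream bases next to an annotated exon, with no match: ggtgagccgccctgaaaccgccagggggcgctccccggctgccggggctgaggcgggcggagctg
CLDN12, chr7:90403211-90403352, plus strand, 142 upstream bases outside annotated exons, with no match: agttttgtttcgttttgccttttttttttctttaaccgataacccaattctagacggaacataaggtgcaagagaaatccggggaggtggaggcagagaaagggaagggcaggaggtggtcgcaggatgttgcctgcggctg

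Genes with a match and genes without one both included a rise and a fall. Whether the matches bear on the changes was not tested. Of the 5 genes with CAGGTG, 3 rose (CLDN3, OCLN and TJP1), 1 fell (TJP3) and 1 was not called (CLDN7), and of the 3 without, CLDN1 rose, CLDN12 fell and CLDN4 was not called. The letters TGANTCA, to which AP-1 factors bind, were in 7.71% of all windows and in the window of CLDN4 alone among these genes, at 2 places. GGAATG, bound by TEAD factors, was in 14.0% of all windows, and AACCGGTT, bound by grainyhead-like factors, in 0.134%, and neither was in any of the 14.

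CLDN1, a sealing claudin known for the barrier of the epidermis (chr3:190305701-190322475, minus strand, all gene positions from GENCODE v29 on GRCh38), had the largest difference of the 9. Its log2(FPKM + 1) was 3.66, 3.70 and 3.65 in parental replicates 1 to 3 and 5.30, 5.74 and 5.78 in adapted replicates 1 to 3. All 3 adapted samples lay far above all 3 parental samples. On the linear scale the parental mean was 11.7 ± 0.234 FPKM and the adapted mean 48.3 ± 8.63 FPKM (SD, n = 3 each), a ratio of 4.12. The log2 difference was 1.94 (SE 0.13, 95% interval 1.64 to 2.23, limma adjusted p = 2.83e-05), and 2.26% of the rows tested had a larger difference in either direction. In bulk samples, more cells with a transcript and more of it per cell cannot be told apart.

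CLDN3, another sealing claudin (chr7:73768997-73770270, minus strand), rose by less. It read 4.41, 4.33 and 4.37 in parental and 4.70, 5.02 and 4.97 in adapted replicates. The groups did not overlap. Mean FPKM was 19.6 ± 0.596 and 28.9 ± 3.47 (n = 3 each), with a log2 difference of 0.53 (SE 0.09, 95% interval 0.31 to 0.75, limma adjusted p = 0.00222).

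CLDN4 is the gene next to CLDN3 (chr7:73799542-73832693, plus strand), 29271 bases away with 0 annotated genes between them, and encodes a sealing claudin of many simple epithelia. Its values were 7.35, 7.32 and 6.73 in parental and 6.42, 7.73 and 7.15 in adapted replicates. The adapted samples held both the lowest and the highest of the 6, and both groups spread more than for any other of the 9 genes (SD 0.35 and 0.66 on the log2 scale). The difference was -0.03 (SE 0.32, 95% interval -0.79 to 0.72, limma adjusted p = 0.940), so a change within that interval remains compatible with these samples. It was 0.0040 with quantile normalization and 0.31 (limma adjusted p = 0.263) without adapted replicate 1.

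CLDN7, a claudin that is also found along the lateral membrane and is known to bind EPCAM (chr17:7259903-7263983, minus strand), had the highest mean FPKM of the 9 in both groups. It read 7.57, 7.52 and 7.54 in parental and 7.61, 7.72 and 7.57 in adapted replicates. Adapted replicate 3 lay within the parental range. The difference was 0.09 (95% interval -0.06 to 0.24, limma adjusted p = 0.267), the narrowest interval of the 9. Its exons share 269 bases with AC003688.1 on the same strand, which was listed at 0 in all 6 samples, and 38 bases with the antisense gene ELP5, and whether counting used the strand was not stated.

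CLDN12, a claudin known to lack the PDZ-binding tail of most others (chr7:90383721-90513402, plus strand), fell. Its values were 6.44, 6.45 and 6.35 in parental and 5.07, 5.33 and 5.18 in adapted replicates. Every adapted sample was more than 1 log2 unit below every parental sample. On the linear scale it averaged 84.2 ± 3.20 FPKM before and 35.7 ± 3.27 FPKM after adaptation (n = 3 each), and the parental level was 2.36 times the adapted level. The log2 difference was -1.22 (SE 0.08, 95% interval -1.40 to -1.04, limma adjusted p = 2.56e-05), and 6.93% of the rows tested had a larger one. CLDN12 exons overlap those of GTPBP10 by 347 bases and of CDK14 by 201 bases. They overlap those of AC006153.1 and AC002456.2, which have no row in the table, by 371 and 276 bases. Reads in these stretches could belong to either gene. On the log2 scale GTPBP10 read 2.91 to 2.97 in parental and 2.40 to 2.49 in adapted samples. CDK14 read 2.20 to 2.38 and 2.66 to 3.23, respectively. The part of shared reads in the fall of CLDN12 was not tested.

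OCLN encodes occludin, a MARVEL protein with 4 membrane spans that sits in the strands (chr5:69492292-69558104, plus strand). It read 4.29, 4.33 and 4.10 in parental and 4.67, 5.21 and 5.0 in adapted replicates. The groups did not overlap, with adapted replicate 1 nearest to the parental samples. Mean FPKM was 17.9 ± 1.59 and 30.4 ± 5.79 (n = 3 each), a ratio of 1.70, and the log2 difference was 0.72 (SE 0.14, 95% interval 0.39 to 1.04, limma adjusted p = 0.00364). OCLN has a partial copy, the pseudogene OCLNP1, which has no row in the table, so the share of reads counted for either is uncertain.

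F11R encodes junctional adhesion molecule A, an immunoglobulin-like protein that also helps to place the polarity complex (chr1:160995211-161021348, minus strand). Its values were 5.49, 5.60 and 5.54 in parental and 5.51, 6.07 and 5.91 in adapted replicates. Adapted replicate 1 lay among the parental samples and the other two above them. The difference was 0.28 (SE 0.13, 95% interval -0.03 to 0.60, limma adjusted p = 0.108), and it passed the threshold without adapted replicate 1 (0.44, limma adjusted p = 7.56e-04). The row AL591806.3, a read-through gene, has 1853 bases of exon in common with F11R. It read 0.58, 0.20 and 1.15 in parental and 0, 0.10 and 0.10 in adapted replicates. The part of shared reads in the values of F11R was not tested.

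TJP1 encodes ZO-1 (chr15:29699367-29968865, minus strand), the scaffold that binds claudin tails, occludin and F-actin. It read 4.33, 4.30 and 4.26 in parental and 4.86, 5.28 and 5.19 in adapted replicates. All adapted samples were above all parental samples. Mean FPKM was 18.6 ± 0.512 and 33.8 ± 5.15 (n = 3 each), a ratio of 1.81, and the log2 difference was 0.82 (SE 0.11, 95% interval 0.56 to 1.07, limma adjusted p = 6.46e-04).

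TJP3 encodes ZO-3 (chr19:3708109-3750813, plus strand), a paralog found mainly in epithelia, and went the other way. Its values were 4.54, 4.48 and 4.51 in parental and 3.99, 4.20 and 4.31 in adapted replicates. The adapted samples were all lower, with replicate 1 the farthest away. Mean FPKM was 21.8 ± 0.504 and 17.0 ± 1.98 (n = 3 each), with a log2 difference of -0.34 (SE 0.09, 95% interval -0.55 to -0.14, limma adjusted p = 0.0125). This was the only called gene of the 9 that missed a threshold of 0.01. Over the alternatives its limma adjusted p ran from 0.00565 (without adapted replicate 1) to 0.0489 (without parental replicate 1).

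Of the 9 genes, 6 passed the test (4 rose and 2 fell), and the same 6 had groups that did not overlap. Over all rows tested, 56.9% passed (30.7% higher and 26.2% lower in adapted cells) and the groups did not overlap in 66.3%. The share of these 9 genes that changed was thus near that of the table, and the count says nothing particular about tight junctions. The median log2 difference of the 9 was 0.28, against 0.03 over all rows tested. Adapted replicate 1 was the lowest of the adapted samples in 8 of the 9 genes, against 39.2% of the rows tested, and whether this reflects that library or those cells was not tested.

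The order of the levels was taken in FPKM, which is per length. RNase R digestion or exons shared with other genes could affect genes unequally, so the order is that of the table, and it differed between the groups. In parental cells it was CLDN7, CLDN4, CLDN12, F11R, TJP3, CLDN3, TJP1, OCLN and CLDN1, from high to low. The sample ranges of neighbours were apart except between CLDN3 and TJP1 and between TJP1 and OCLN. In adapted cells it was CLDN7, CLDN4, F11R, CLDN1, CLDN12, TJP1, OCLN, CLDN3 and TJP3, and only the step from CLDN4 to F11R and that from CLDN3 to TJP3 had ranges apart. CLDN1 thus went from the last place to the middle of the order, between F11R and CLDN12.

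The summed FPKM of all claudin genes in the table averaged 459 ± 36.4 before and 470 ± 85.0 after adaptation (n = 3 each), with overlapping groups. Within that sum CLDN1 took 2.56% ± 0.189 in parental and 10.3% ± 1.19 in adapted cells. CLDN12 took 18.4% ± 0.812 and 7.67% ± 0.695, and CLDN3 4.30% ± 0.359 and 6.20% ± 0.487. CLDN7 (40.6% ± 3.20 and 42.7% ± 6.37) and CLDN4 (30.7% ± 4.69 and 30.0% ± 8.02) supplied most of the sum in both groups, and their groups overlapped. CLDN2 took 1.73% ± 0.119 and 0.109% ± 0.165. The ratio of CLDN1 to CLDN12 FPKM was 0.139 ± 0.00415 in parental and 1.35 ± 0.180 in adapted samples, a description of the gene that rose most against the gene that fell most. That of CLDN3 to CLDN4, which are neighbours on the chromosome, was 0.144 ± 0.0367 and 0.220 ± 0.0730, with overlapping groups. These shares are of mRNA and not of protein in the junction.

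**Figure D1:**
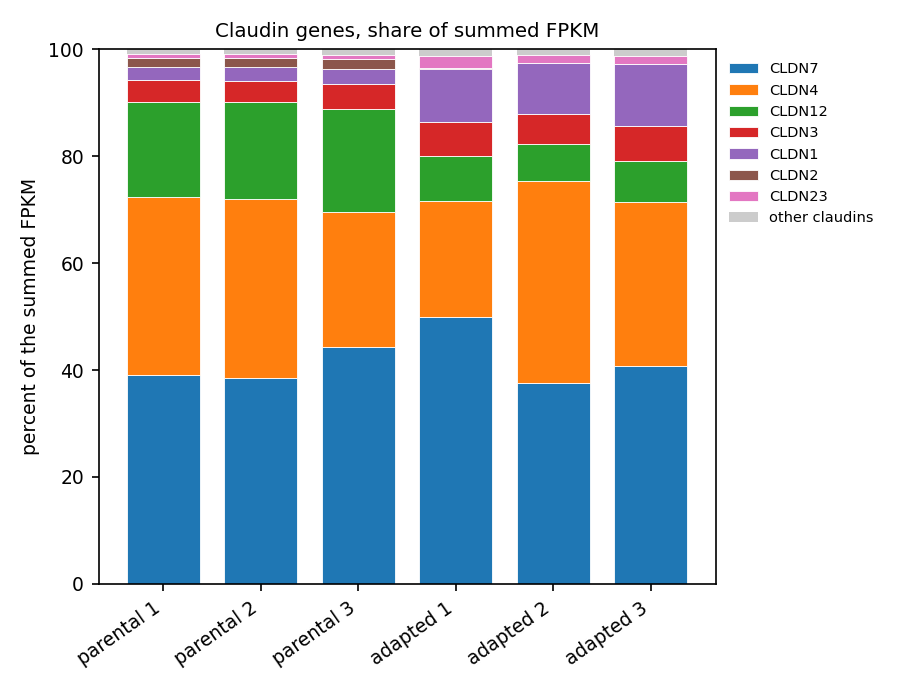
Share in percent of the summed claudin FPKM taken by each gene, with 1 bar per sample stacked to 100%. On average CLDN1 widens from 2.56% to 10.3% and CLDN12 narrows from 18.4% to 7.67%, and CLDN7 and CLDN4 fill most of every bar.

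The proportion of the scaffolds TJP1 and TJP3 also shifted. The ratio of TJP1 to TJP3 FPKM was 0.857 ± 0.0224 in parental and 1.99 ± 0.172 in adapted samples. This restates in 1 value that TJP1 rose and TJP3 fell. RNase R digestion could affect the 2 genes unequally, so the ratio does not give which mRNA was more abundant in the cells.

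Of 19 other claudin genes, 4 had a mean of at least 1, of which 1 rose and 1 fell. That was 50% of those tested, against 56.9% of all rows tested. CLDN2, which forms pores for cations and water, read 3.15, 3.19 and 3.13 in parental and 1.12, 0.07 and 0.12 in adapted samples. It was near 0 in adapted replicates 2 and 3 and higher in replicate 1, and the log2 difference was -2.72 (limma adjusted p = 1.44e-04). The added 1 shrinks a difference at such low levels, which was -4.59 with 0.1 added, and mean FPKM was 7.92 ± 0.178 in parental and 0.436 ± 0.633 in adapted samples. CLDN23 rose by 1.01 (limma adjusted p = 1.16e-04), whereas CLDN9 differed by 0.36 (limma adjusted p = 0.113, or 0.57 with 4.58e-04 without adapted replicate 1) and CLDN15 by 0.13 (limma adjusted p = 0.207). The other 15 were not tested, and CLDN17, CLDN19, CLDN22 and CLDN25 were listed at 0 in all 6 samples.

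**Figure D2:**
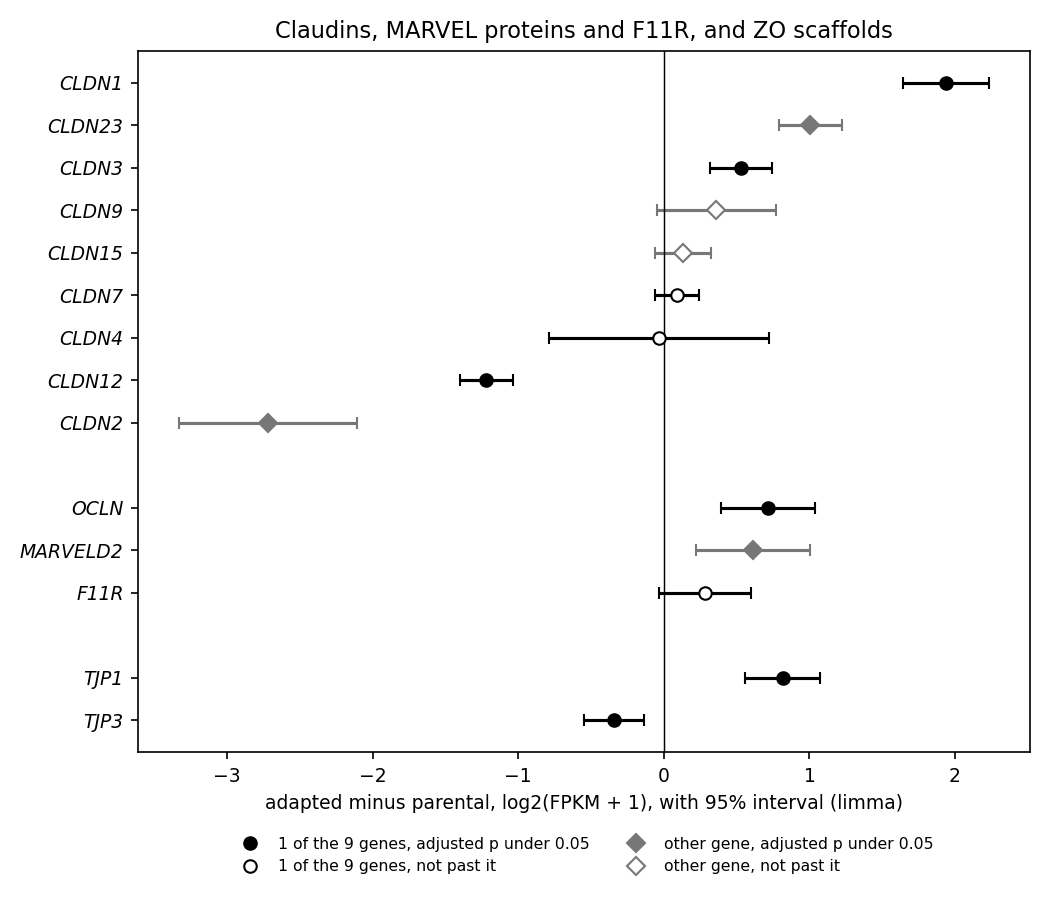
Difference between adapted and parental cells in log2(FPKM + 1) with its 95% interval from limma, for the claudins, MARVEL proteins and F11R, and ZO scaffolds. Filled symbols passed an adjusted p of 0.05; CLDN1 (1.94) and CLDN2 (-2.72) lie at the ends, and the interval of CLDN4 is the widest of the 9 genes.

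Among 12 other membrane proteins of the junction, 6 were tested and 3 rose (median 0.39). The share called was 50%, against 56.9% of all rows tested. MARVELD3, LSR and CRB3 were not called (differences of 0.01, 0.25 and -0.03). ILDR1, an angulin of the corners where 3 cells meet, rose by 1.08 (limma adjusted p = 0.00110). MARVELD2, or tricellulin, which lies at the same corners, read 3.22, 3.25 and 3.15 in parental and 3.40, 3.98 and 4.07 in adapted samples. It rose by 0.61 (limma adjusted p = 0.0164), a call that was lost without the filter on low values and when adapted replicate 2, adapted replicate 3 or parental replicate 3 was left out. CXADR, an adhesion protein that doubles as a virus receptor, rose by 0.54 (limma adjusted p = 5.67e-04).

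Of 15 cytoplasmic plaque proteins, 14 were tested, 8 rose and 2 fell (median 0.55). Calls made up 71.4% of those tested here and 56.9% of all rows tested. The angiomotins, which bind polarity proteins and restrain YAP, led: AMOT rose by 2.47 (limma adjusted p = 0.00135) and AMOTL2 by 1.60 (limma adjusted p = 5.68e-06). CGNL1, or paracingulin, rose by 1.26 (limma adjusted p = 4.50e-04), while its paralog CGN, or cingulin, differed by -0.06 (limma adjusted p = 0.702). Both that fell are known partners of the plaque: ARHGEF2, a guanine nucleotide exchange factor, by 0.68 (limma adjusted p = 2.16e-04), and YBX3, a Y-box protein that binds ZO-1, by 0.30 (limma adjusted p = 0.0117).

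In the polarity complexes that place the junction, 10 of 11 genes were tested, 6 rose and 1 fell (median 0.27). Of those tested 70% were called, against 56.9% of all rows tested. PARD6G rose by 0.77 (limma adjusted p = 9.00e-04), the atypical protein kinase C PRKCZ by 0.70 (limma adjusted p = 0.00329) and LLGL2, a basolateral determinant, by 0.44 (limma adjusted p = 0.00646). PARD3 fell by 0.24 (limma adjusted p = 0.0173), a call that was lost without parental replicate 1. Of 14 genes of the actomyosin belt and its control, 7 rose and 1 fell (median 0.33). The 57.1% called was near the 56.9% of all rows tested. MYL9, a myosin regulatory light chain, rose by 3.10 (limma adjusted p = 1.72e-06), and MYLK, the kinase of that chain, by 1.65 (limma adjusted p = 3.20e-05). The myosin heavy chain gene MYH14 rose by 1.30 (limma adjusted p = 3.06e-04), and CIT, a kinase of cytokinesis, fell by 1.09 (limma adjusted p = 3.43e-05).

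Adherens junctions and desmosomes, which lie below the tight junction, had 3 of 17 genes that rose and 5 that fell (median 0.05, 47.1% called). Without adapted replicate 1, 8 rose and 6 fell, while calls over all rows tested went from 56.9% to 66.1%. CDH1, or E-cadherin, read 7.46 in all 3 parental samples and 7.08, 7.65 and 7.66 in adapted samples, and EPCAM differed by -0.15 (limma adjusted p = 0.162). The CDH1 difference was 0.01 (limma adjusted p = 0.972) with all samples, -0.013 with median centring, and 0.20 (limma adjusted p = 0.00648) without adapted replicate 1. The nectin NECTIN3 rose by 0.93 (limma adjusted p = 0.00224), PERP, a protein of desmosomes, by 0.52 (limma adjusted p = 0.00413) and NECTIN2 by 0.30 (limma adjusted p = 0.00603). NECTIN4 fell by 0.72 (limma adjusted p = 0.00459), CTNNB1, or beta-catenin, by 0.64 (limma adjusted p = 4.06e-04) and DSG2 by 0.42 (limma adjusted p = 0.00351).

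The transcription factors and splicing factors known to act on junction genes did not move in a single direction: 13 of 16 were tested, 4 rose and 6 fell (median -0.06). Calls were 76.9% of those tested, against 56.9% of all rows tested. The related repressors SNAI1 and SNAI2 went opposite ways. SNAI1 read 2.80, 2.90 and 2.91 in parental and 0.67, 0.45 and 0.52 in adapted samples (difference -2.32, limma adjusted p = 3.51e-06), and SNAI2 0.83, 0.81 and 0.80 and then 2.61, 2.94 and 2.87 (difference 1.99, limma adjusted p = 1.01e-05). The epithelial activators GRHL3 and GRHL2 rose by 1.60 (limma adjusted p = 0.00120) and 0.72 (limma adjusted p = 0.00671). KLF4 fell by 0.98 (limma adjusted p = 6.62e-05), and ESRP1, an epithelial splicing factor, by 1.08 (limma adjusted p = 7.95e-04). ZEB1, ZEB2 and TWIST1, which were under the mean of 1, were named after their values were seen. ZEB1 read 0.50 to 0.57 in parental and 1.11 to 1.79 in adapted samples. ZEB2 read 0.14 to 0.18 and 0.99 to 2.06, and TWIST1 0 to 0.03 and 0.10 to 0.49, in the same order. Of the other regulators OVOL2 rose (0.67), and OVOL1 (-0.97), TWIST2 (-0.33) and ELF3 (-0.27) fell. GRHL1 (0.39), ESRP2 (0.16) and KLF5 (-0.06) were not called.

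Several genes traced the pattern of CLDN1 or CLDN12 across the 6 samples almost exactly. Nearest to CLDN1 among 7563 genes with a mean of at least 3 were PON2, TIMP2 and CYTH3 (Pearson r of 0.9999, 0.9997 and 0.9997 over 6 samples), and nearest to CLDN12 were GFPT1, PLS1 and FAM208A (0.9997, 0.9989 and 0.9987). With 3 samples in each of 2 groups, r mostly follows the difference between groups, and 344 genes had r over 0.99 with CLDN1 and 114 with CLDN12.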

How the data were processed

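Total RNA of 3 parental and 3 adapted H1975 samples was sequenced, and the authors deposited 1 table of log2 values with a column per sample. The scale, log2(FPKM + 1), was read from the values. Per the labels, Bowtie2 2.1.0, STAR, edgeR and hg38 were named, with no role given, and the methods name DESeq2. Their counting and annotation versions are not given in the sources used here. As no counts were at hand, a linear model was fitted, unpaired, in limma 3.58.1 (R 4.3.3, moderated with an intensity trend) to rows with a mean of at least 1, with Benjamini-Hochberg adjustment over 12656 rows and a threshold of 0.05. FPKM was 2 to the power of the value minus 1. In 147 rows, none of a gene listed here, a constant appears to have been added to 1 group. The members and gene lists were chosen with earlier results of these data known. Beyond the 9 members, up to 3 genes of each list that rose and that fell most were named, with MARVELD2, CGN, CDH1, EPCAM, the other claudins tested and the 3 genes most like CLDN1 and CLDN12. The other regulators were named after their values were seen. Alternatives were the filter, pseudocount, scaling, threshold, replicate block and leaving out each sample. Others were moderation without the trend, robust moderation and subtraction of the added constants. Positions came from GENCODE v29 and promoter sequences from RefSeq, searched in Python 3.11. Some items of the lists are not reported here.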

Additional observations from a re-analysis of the deposited data

How the results depend on the processing

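All 9 genes were computed under 17 alternatives each, and 147 of these values kept their direction and their side of the threshold, while 4 changed sign, 1 lost and 1 gained its call. Some alternatives could change little. Subtracting the constants altered no value of these 9 genes, and the threshold of 0.01 reused the main estimates. CLDN4, which was not called, changed sign under quantile normalization (0.0040) and ranged from -0.35 to 0.31 when single samples were left out. TJP3 (-0.34) missed a threshold of 0.01 and came near 0.05 without parental replicate 1 (limma adjusted p = 0.0489). F11R ranged from 0.16 to 0.44 without single samples and was called without adapted replicate 1. Of the other named genes, CGN ranged from -0.14 to 0.10 and CDH1 from -0.091 to 0.20 without single samples, and CDH1 was -0.013 with median centring. Calls over the table went from 7202 of 12656 rows (56.9%) to 4532 of 7693 rows (58.9%) when a mean of at least 3 was required. With fewer genes left to test, calls were then 6 of 10 plaque proteins, 5 of 8 regulators and 0 of the other claudins, of which none was left to test. At a threshold of 0.01, 4 of 10 polarity genes were called, beside 5140 of all 12656 rows tested. Calls among the 17 adherens and desmosome genes ranged from 7 to 14 without single samples, while calls over all rows ranged from 45.5% to 66.1%. For CLDN4, CDH1, F11R and the adherens genes the cause was not tested.

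Replicate numbers did not pair the samples (correlations of same-numbered deviations -0.05, -0.03 and -0.02). With the replicate number as a block, 6761 rows were called, and none of the 9 genes changed its call. A count test was not run, because no counts were at hand, and depth is unknown, so no counting error can be given. Each group has 3 samples, so a single gene cannot go below an exact p of 0.1.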
